A study of Mus musculus with 18 samples.

Results

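The 10 genes followed here were DUSP4, DUSP5, DUSP6, SPRY4, SPRED1, SPRED2, ETV4, ETV5, EGR1 and PHLDA1, the negative feedback and early response genes of the FGF to ERK pathway. They were chosen by name, as a list, and all probes carrying one of these names were taken. Of the 10 genes, 9 had a probe on the array and all 9 passed the filter on detection, among 16446 genes tested. DUSP5, a nuclear phosphatase of ERK, had no probe under this name and has no value. The 9 genes were read by 17 probes, of which 15 were kept.

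Murine embryonic stem (ES) cells were grown on a monolayer of PA6, a mouse stromal line, in serum-free medium for 3 days (ES/PA6 co-cultures), and PA6 cells were grown alone in parallel (PA6 mono-cultures). Each kind of culture received no growth factor (-GFs), recombinant FGF2 at 20 ng/ml or recombinant BMP4 at 10 ng/ml from the start, with 3 biological replicates, which gave 6 groups and 18 arrays of total RNA. Per the study's methods the ES cells carried an enhanced green fluorescent protein knocked in under the tau promoter, so all co-cultures share this allele and a single parental line. The co-cultures were not separated before extraction, so each value there is a blend of ES and PA6 transcripts, and fewer cells of a type cannot be told apart from less RNA per cell.

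When an FGF binds its receptor, adaptor proteins load RAS with GTP and the kinases RAF, MEK and ERK are activated in turn. ERK then switches on genes that shut the cascade down again: phosphatases of the DUSP family remove the phosphates from ERK, while Sprouty and SPRED proteins act upstream on RAS and RAF. The ETS factors ETV4 and ETV5 are among the transcription factors turned on by FGF in many tissues, and EGR1 is an immediate early gene that rises and falls quickly after a stimulus. In pluripotent ES cells FGF4, made by the cells themselves, keeps this cascade active, and several of these genes are known as its steady-state readouts.

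The promoters of DUSP6 and ETV5 are shown because these were among the members whose change with FGF2 differed between the cultures, and because both are known targets of Capicua, a repressor that ERK removes from DNA and whose sites hold the core TGAATG. The windows run from 250 bases before to 50 bases after a RefSeq start site in GRCm38.p6. The DUSP6 window lies at chr10:99262981-99263280 on the plus strand, and the ETV5 window, the second of 2 start sites, lies at chr16:22438319-22438618 on the minus strand. Both are written 5′ to 3′ along the gene, with TGAATG, or CATTCA where it stands on the opposite strand, in capitals.
DUSP6: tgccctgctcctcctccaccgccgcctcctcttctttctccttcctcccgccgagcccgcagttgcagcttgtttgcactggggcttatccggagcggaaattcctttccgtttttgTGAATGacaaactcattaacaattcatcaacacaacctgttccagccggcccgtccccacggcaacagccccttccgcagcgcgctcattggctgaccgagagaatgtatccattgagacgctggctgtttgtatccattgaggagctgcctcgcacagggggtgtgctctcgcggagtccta
ETV5: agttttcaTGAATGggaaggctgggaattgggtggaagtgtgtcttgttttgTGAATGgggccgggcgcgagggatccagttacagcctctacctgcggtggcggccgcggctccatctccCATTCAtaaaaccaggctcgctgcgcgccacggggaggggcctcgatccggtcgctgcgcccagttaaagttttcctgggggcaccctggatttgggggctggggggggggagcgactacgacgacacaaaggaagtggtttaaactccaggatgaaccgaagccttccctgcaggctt
The core stood once in the DUSP6 window, at -133 from the start site. It stood 3 times in the ETV5 window, at -242, -198 and -129. On both strands, 12.7% of 32851 mouse promoter windows of the same length held the core at least once, and 0.17% held it 3 or more times. DUSP5, which has no value on the array, held it once, at -37, and no TGAATG was found in the windows of SPRED1 and SPRED2 or in the other ETV5 window. A search of all 6 windows on both strands for CCGGAA of ETS factors (in 14.9% of all windows), TGACGTCA of CREB (1.79%), TGAGTCA or its complement TGACTCA of AP-1 (5.2%) and the CArG box of serum response factor (1.63%) matched in DUSP5 alone, with 2 CArG boxes at -82 and -72. A match is a run of letters, and no binding was measured.

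Both labelled cell types showed in their markers. Over 9 pluripotency markers the summed normalized intensity per array was between 43342 and 81266 in the co-cultures and between 391 and 507 in the mono-cultures. NANOG was not detected on any PA6 array without growth factors or with FGF2, although POU5F1 passed detection there at a mean normalized log2 intensity of 6.86 without growth factors, against 13.19 in the co-cultures. Summed stromal markers were between 57597 and 104421 in the co-cultures and between 149711 and 191984 in the mono-cultures. Between 17125 and 20412 probes were detected per array, and arrays of a group correlated at 0.981 or above.

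All values are normalized log2 intensities of the brightest probe of a gene, and levels were not compared between genes. A gene was called changed when the Benjamini-Hochberg adjusted p of limma over all genes was under 0.1 and the absolute log2 fold change over 1. A probe counted as detected on an array with a detection p under 0.05.

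FGF2 moved 5 of the 9 measured genes in PA6 cells alone, and the limma fit called none of them in the ES/PA6 co-cultures. In the mono-cultures DUSP6, ETV5, PHLDA1 and DUSP4 rose and EGR1 fell, against 5.27% of all genes called in this comparison. The median log2 change of the 9 genes was 1.20, with -0.01 over all genes tested. In the co-cultures 0 of 9 were called, 1 of 9 (ETV4) had an unadjusted p under 0.05, and the median log2 change was 0.26, with 3.34% of all genes called. These counts take the brightest probe, and ILMN_2870965 and ILMN_2608995, other probes of DUSP4, were called lower there.

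**Figure D1:**
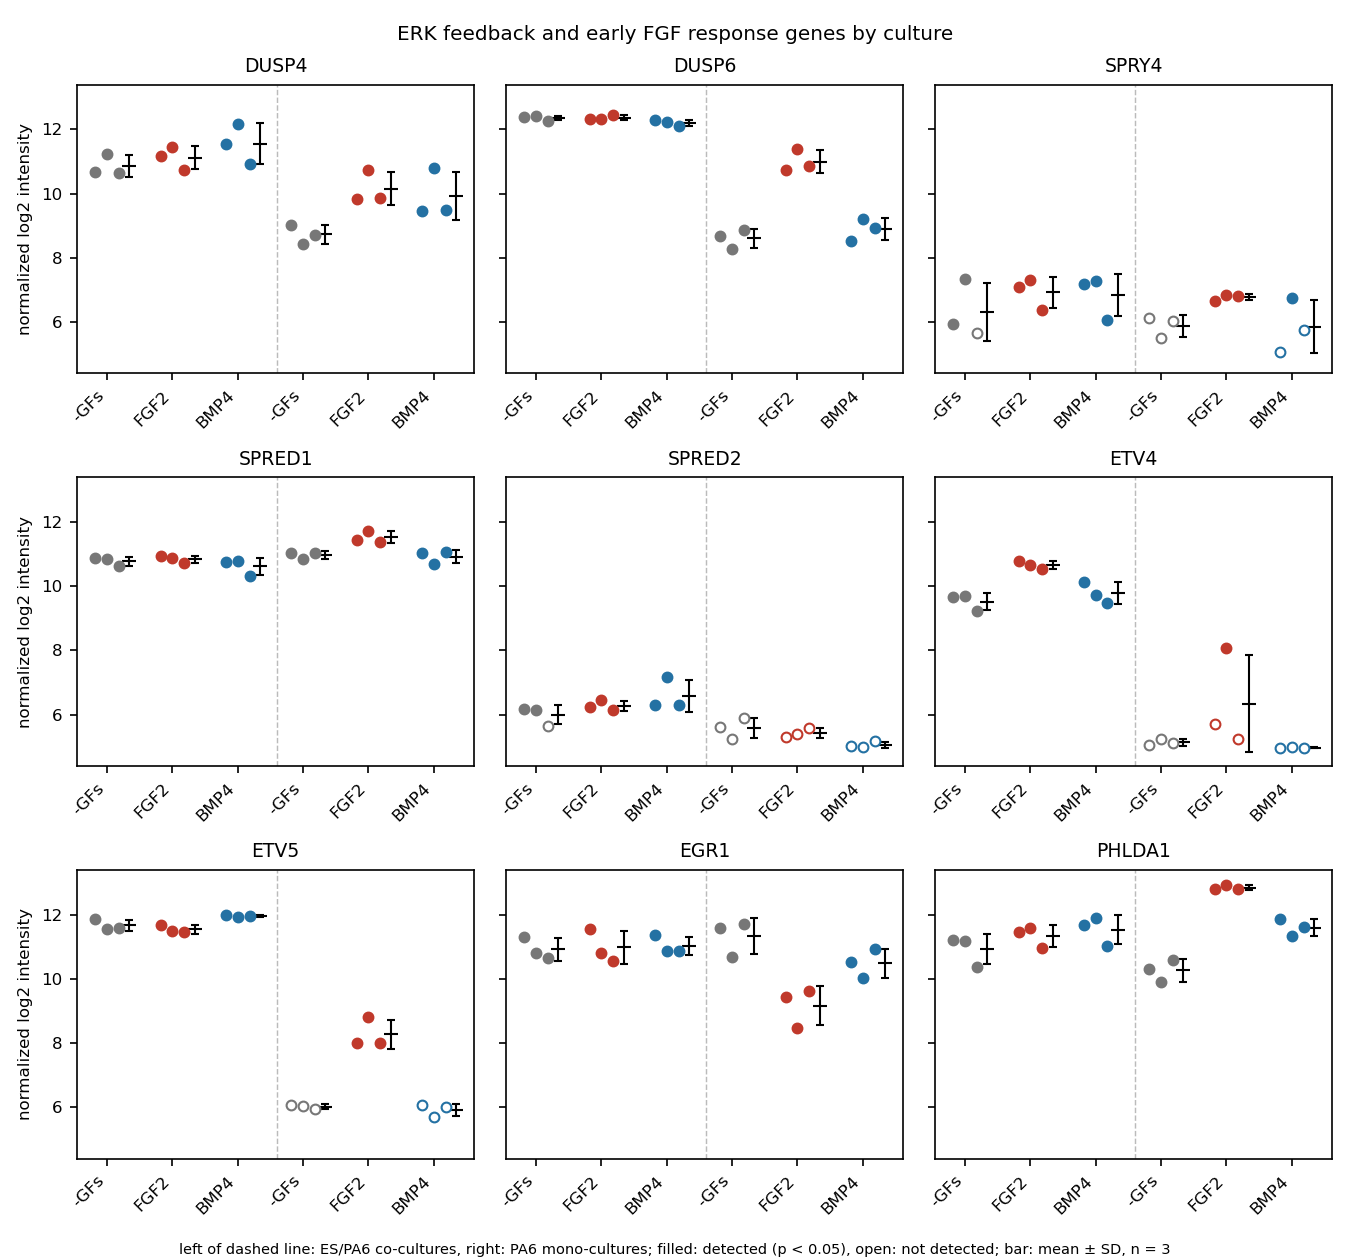
Normalized log2 intensity of the brightest probe of each of the 9 measured genes (vertical axis) in the 6 culture groups (horizontal axis), with a point per array, filled where detected and open where not, and the mean ± SD of 3 arrays beside them. DUSP6, ETV5 and ETV4 were higher on every co-culture array than on any PA6 array, and the rise of DUSP6, ETV5 and PHLDA1 with FGF2 is seen to the right of the dashed lines.

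**Figure D2:**
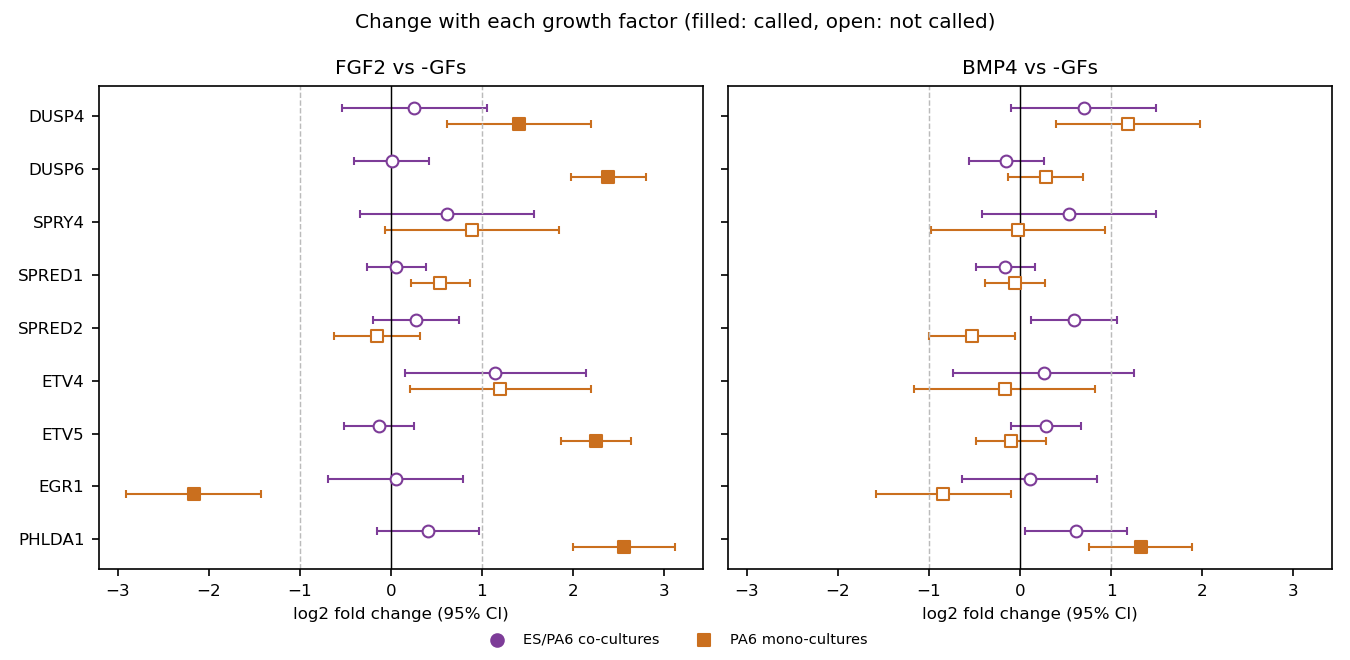
Log2 fold change of each gene with FGF2 (left panel) and with BMP4 (right panel) against the same culture without growth factors, with 95% confidence intervals from limma. Circles are ES/PA6 co-cultures, squares are PA6 mono-cultures, and filled symbols are genes called changed. With FGF2 the filled squares lie at 1.41 or above, apart from EGR1 at -2.16, and all circles are open.

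DUSP6, the cytoplasmic phosphatase specific for ERK, gave 8.67, 8.27 and 8.87 in the 3 untreated PA6 cultures, 10.72, 11.40 and 10.86 with FGF2, and 8.52, 9.20 and 8.94 with BMP4. The FGF2 arrays all lay above the other 6, and the BMP4 arrays overlapped the untreated ones. The rise with FGF2 was 2.39 ± 0.193 (SE) on the log2 scale, or 5.24-fold (adjusted p = 5.61e-07), and FGF2 exceeded BMP4 by 2.11 ± 0.193 (adjusted p = 1.72e-06).

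In the co-cultures DUSP6 was high and flat. It gave 12.38, 12.41 and 12.28 without growth factors, 12.32, 12.32 and 12.45 with FGF2, and 12.29, 12.23 and 12.10 with BMP4. The change with FGF2 was 0.01, with a 95% interval from -0.40 to 0.42. A log2 change of the whole blend as large as that in the mono-cultures lay outside this interval. Whether the PA6 cells within the blend rose as they did alone was not tested. Without growth factors DUSP6 was 13.5-fold higher in the co-cultures than in PA6 alone (log2 difference 3.75 ± 0.193, adjusted p = 7.71e-11), a comparison in which 39.0% of all genes were called.

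Both other DUSP6 probes were dimmer. One of them, ILMN_1248537, was not detected in untreated PA6 and rose at least 2.93-fold with FGF2, a fitted log2 change of 2.17 that was called, against -0.03 in the co-cultures. The other, ILMN_2701321, was not detected on any PA6 array, so its fitted change of 0.77 there carries no fold.

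DUSP4, a nuclear phosphatase of ERK and related kinases, gave 9.04, 8.45 and 8.72 in untreated PA6, 9.82, 10.74 and 9.88 with FGF2, and 9.47, 10.80 and 9.50 with BMP4. Every treated array lay above every untreated one, and the second replicate was the highest with either factor. The rise with FGF2 was 1.41 ± 0.373 (adjusted p = 0.017). With BMP4 it was 1.19 ± 0.373, and this was not called (adjusted p = 0.126).

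The 4 probes named DUSP4 did not move together with FGF2. In the co-cultures the brightest gave 10.68, 11.24 and 10.64 without growth factors and 11.17, 11.44 and 10.73 with FGF2, groups that overlapped (log2 change 0.26). The other 3 were lower with FGF2 on every array than on any array without it: ILMN_2689731 by -0.997 (adjusted p = 0.0479, just short of the fold threshold), ILMN_2870965 by -1.05 (adjusted p = 0.044) and ILMN_2608995 by -1.28 (adjusted p = 0.0163), of which the latter 2 were called. In PA6 alone with FGF2 the same 3 probes changed by 0.77, 0.70 and 0.22, none called. With BMP4 in PA6 they changed by 1.43 (adjusted p = 0.0121), 1.16 (adjusted p = 0.0513) and 0.87 (adjusted p = 0.184), of which the larger changes were called. The direction of DUSP4 in the FGF2 co-cultures therefore depended on the probe, and the transcript each probe reads was not analysed here.

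**Figure D3:**
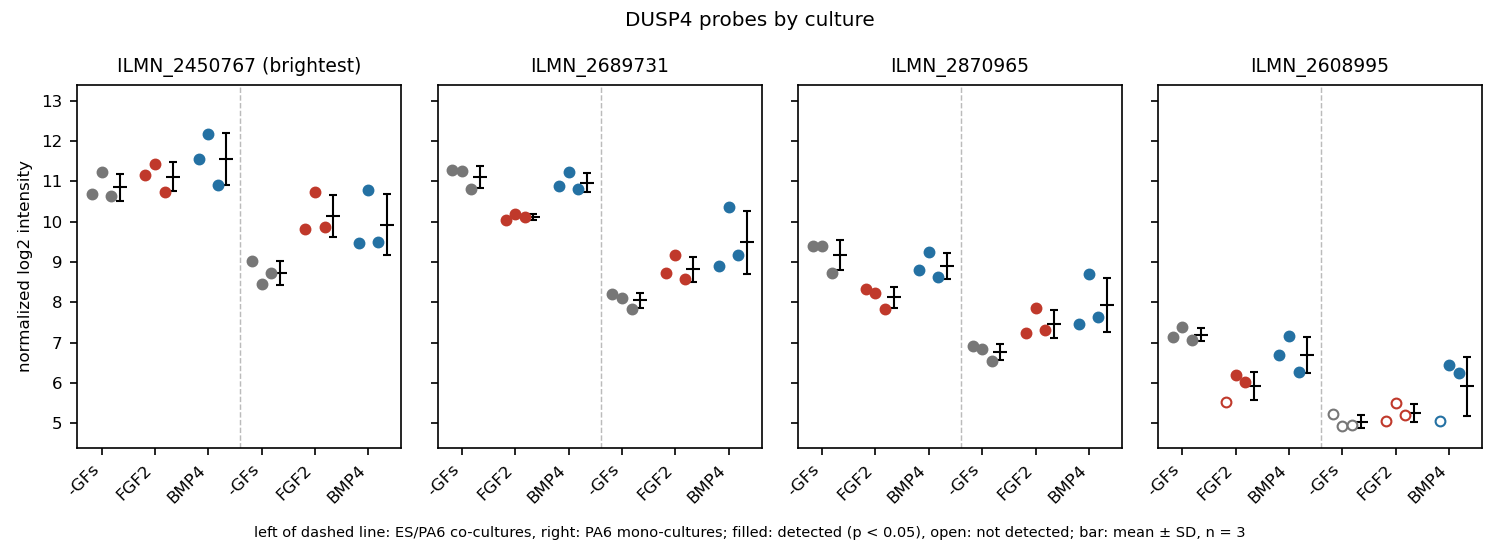
Normalized log2 intensity (vertical axis) of the 4 probes named DUSP4 in the 6 culture groups (horizontal axis), with a point per array, filled where detected, and the mean ± SD of 3 arrays. In the co-cultures with FGF2 the brightest probe overlapped the untreated arrays, and the other 3 lay below them.

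None of SPRY4, SPRED1 and SPRED2, the upstream inhibitors among the members, was called with either factor. SPRY4, a Sprouty protein that restrains RAS activation, was near the detection limit, with 6.11, 5.50 and 6.05 in untreated PA6, none detected, and 6.66, 6.85 and 6.81 with FGF2, all detected. These groups did not overlap, but the log2 change of 0.89 ± 0.450 was not called (adjusted p = 0.231), and the fold was at least 1.39. With BMP4, SPRY4 gave 5.08, 6.74 and 5.76 in PA6, with only the second replicate detected.

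In the co-cultures SPRY4 gave 5.94, 7.33 and 5.64 without growth factors, 7.08, 7.31 and 6.37 with FGF2, and 7.18, 7.27 and 6.07 with BMP4. All 3 groups overlapped. The intervals were wide, from -0.34 to 1.57 for FGF2.

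SPRED1, which blocks RAS signalling at the membrane, was detected on all arrays and differed little among them. In PA6 it gave 11.05, 10.84 and 11.04 without growth factors and 11.46, 11.73 and 11.38 with FGF2, groups that did not overlap. The rise of 0.55 ± 0.154 had an adjusted p of 0.0249 but stayed under the fold threshold. In the co-cultures SPRED1 was between 10.31 and 10.93 in all 3 groups, with changes of 0.06 for FGF2 and -0.16 for BMP4.

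SPRED2, a close relative of SPRED1, was read by 1 kept probe and was not detected on any PA6 array. In the co-cultures it gave 6.17, 6.16 and 5.65 without growth factors, 6.23, 6.44 and 6.14 with FGF2, and 6.29, 7.17 and 6.30 with BMP4. The BMP4 arrays lay above the untreated ones, and the change of 0.59 ± 0.223 was not called (adjusted p = 0.304). Its other 2 probes were detected on 2 and 0 of the 18 arrays and were left out.

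As with DUSP6, the log2 change of ETV5 with FGF2 differed between cultures. ETV5 encodes an ETS factor downstream of FGF receptors. It gave 6.08, 6.03 and 5.94 in untreated PA6 and 6.06, 5.70 and 6.00 with BMP4, none detected, and 8.01, 8.80 and 7.99 with FGF2, all detected. On the background-corrected values the rise with FGF2 was at least 3.92-fold, with a fitted log2 change of 2.25 ± 0.181 (adjusted p = 5.32e-07). Over the alternatives the fitted change went down to 1.35. The second ETV5 probe, ILMN_2938047, rose by 1.67 and was called too. It was detected in PA6 without FGF2 as well, on 1 of 3 untreated and 3 of 3 BMP4 arrays.

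The co-cultures held far more ETV5 than PA6 did under any condition. Values were 11.87, 11.57 and 11.58 without growth factors, 11.68, 11.48 and 11.45 with FGF2, and 11.98, 11.91 and 11.97 with BMP4. Without growth factors the excess over PA6 was at least 41.4-fold (fitted log2 difference 5.65 ± 0.181, adjusted p = 2.51e-13). This bound too holds for the background-corrected values, and over the alternatives the fitted difference went down to 4.39. FGF2 changed ETV5 there by -0.13, with a 95% interval from -0.52 to 0.25. BMP4 arrays lay above both other groups by a small margin, with 0.28 ± 0.181 against no growth factor (adjusted p = 0.67).

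ETV4, the paralogue of ETV5, was the member whose co-culture arrays with FGF2 stood apart. They gave 10.79, 10.67 and 10.55, against 9.65, 9.68 and 9.23 without growth factors and 10.14, 9.74 and 9.47 with BMP4, with no overlap. The rise with FGF2 was 1.15 ± 0.468, or 2.21-fold, and was not called (adjusted p = 0.193). It was called when the co-cultures were fitted alone (adjusted p = 0.0185), where the spread of the PA6 arrays does not enter.

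In PA6 1 array stood apart. There ETV4 gave 5.69, 8.07 and 5.25 with FGF2, of which only the second replicate was detected, and between 4.95 and 5.25 on the 6 other arrays, none detected. The change with FGF2 was 1.20 ± 0.468 (adjusted p = 0.106), the fold at least 1.03, and FGF2 exceeded BMP4 by 1.37 ± 0.468 (adjusted p = 0.0599), a call with a fold of at least 1.11. Without the second FGF2 replicate the change against no growth factor was 0.34 and the difference from BMP4 0.51 (adjusted p = 0.125). The difference from BMP4 was also not called without any 1 of the BMP4 replicates (adjusted p from 0.123 to 0.134), with quantile normalization or the cubic spline and no background correction, or with the PA6 arrays fitted alone. Untreated co-cultures exceeded untreated PA6 at least 9.33-fold on the background-corrected values (adjusted p = 4.43e-07). Over the alternatives the fitted log2 difference went down to 2.90.

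PHLDA1, a pleckstrin homology-like protein and an ERK-responsive early gene, gave 10.32, 9.90 and 10.60 in untreated PA6, 12.79, 12.92 and 12.79 with FGF2, and 11.86, 11.32 and 11.60 with BMP4. The 3 groups did not overlap, and BMP4 lay between the others. PHLDA1 rose by 2.56 ± 0.264 with FGF2, or 5.92-fold (adjusted p = 5.95e-06), and by 1.32 ± 0.264 with BMP4, or 2.5-fold (adjusted p = 0.0126). FGF2 exceeded BMP4 by 1.24 ± 0.264 (adjusted p = 0.00395).

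In the co-cultures PHLDA1 gave 11.21, 11.17 and 10.38 without growth factors, 11.46, 11.59 and 10.95 with FGF2, and 11.69, 11.88 and 11.02 with BMP4. The third replicate was the lowest in each group, and all 3 groups overlapped. Within each replicate number PHLDA1 was higher with FGF2, and higher still with BMP4, than without growth factors. The changes were 0.41 ± 0.264 for FGF2 and 0.61 ± 0.264 for BMP4, neither called (adjusted p = 0.482 and 0.397). Over the alternatives the limma adjusted p for BMP4 went down to 0.0466, while the change stayed between 0.34 and 0.87, under the fold threshold.

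EGR1, a zinc finger factor of the immediate early response, went the other way. In PA6 it gave 11.58, 10.69 and 11.71 without growth factors, 9.43, 8.46 and 9.61 with FGF2, and 10.52, 10.02 and 10.93 with BMP4. All FGF2 arrays lay below the others, and the second replicate was the lowest in each group. EGR1 fell by 2.16 on the log2 scale with FGF2 (SE 0.349, adjusted p = 0.000443), a 4.48-fold difference. The change with BMP4 was -0.84 ± 0.349 (adjusted p = 0.299). Within each replicate number EGR1 was lower with BMP4 than without growth factors. Over the alternatives the limma adjusted p for BMP4 went down to 0.00176 and the change lay between -1.16 and -0.61, without a call. FGF2 lay below BMP4 by -1.32 (adjusted p = 0.0167), and without the second FGF2 replicate this was -0.97 (adjusted p = 0.0987), under the fold threshold.

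EGR1 in the co-cultures was between 10.56 and 11.56 on all 9 arrays. Its changes were 0.05 ± 0.349 with FGF2 and 0.11 ± 0.349 with BMP4. Untreated co-cultures and untreated PA6 overlapped (log2 difference -0.41, adjusted p = 0.32). The BMP4 effect on EGR1 in the co-cultures minus that in PA6 was 0.95 ± 0.494, not called (adjusted p = 0.576). Over the alternatives its limma adjusted p went down to 0.0182, without a call.

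The difference between the log2 change with FGF2 in co-cultures and that in PA6 was itself tested in the same fit. How far a rise in the PA6 cells would move the log2 value of a blend was not tested. Over all genes 7.39% were called. Of the 9 genes, 4 were called: DUSP6 (-2.38 ± 0.273, adjusted p = 4.9e-05), ETV5 (-2.39 ± 0.255, adjusted p = 2.52e-05), PHLDA1 (-2.15 ± 0.374, adjusted p = 0.00163) and EGR1 (2.22 ± 0.494, adjusted p = 0.00912). For DUSP4 the brightest probe gave -1.15 (adjusted p = 0.196), and the other 3 probes gave -1.77, -1.75 and -1.49, each called. ETV4 changed by 1.15 in the co-cultures and 1.20 in PA6, a difference of -0.06 whose 95% interval ran from -1.46 to 1.35. The PA6 value rests on the 1 detected array, and without it the difference was 0.81 (adjusted p = 0.0768).

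BMP4 called fewer of these genes. In PA6 it raised 1 of 9, PHLDA1, against 1.41% of all genes, and 4 of 9 had an unadjusted p under 0.05. In the co-cultures the limma fit called 0 of 9, with 0.760% of all genes called and 2 of 9 (SPRED2 and PHLDA1) at an unadjusted p under 0.05. Between FGF2 and BMP4, 5 of 9 differed in PA6 (DUSP6, ETV5, PHLDA1 and ETV4 higher and EGR1 lower with FGF2), against 5.82% of all genes. In the co-cultures that comparison called 0 of 9, with 1 at an unadjusted p under 0.05 (ETV5) and 2.85% of all genes called. For the difference of the BMP4 effects between cultures the count was again 0 of 9 by limma, with 1 (SPRED2, 1.11) at an unadjusted p under 0.05 and 0.559% of all genes called. Replicate numbers paired the co-cultures, and with replicate as a block the BMP4 difference of SPRED2 (adjusted p = 0.0313) and the FGF2 difference of DUSP4 (adjusted p = 0.0709) were called. Over all genes the block called more as well, 305 against 92 for the BMP4 difference and 1361 against 1216 for the FGF2 difference. SPRED2 was not detected on any PA6 array, so its difference includes a change of -0.52 between groups below detection.

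The 3 treated and 3 untreated arrays were also compared by overlap alone. In PA6 with FGF2, 8 of 9 genes did not overlap, where 33.8% of all genes did not. Among them ETV4 was separated only by 5.252 on its lowest FGF2 array against 5.246 on its highest untreated one, both undetected. In PA6 with BMP4 it was 4 of 9 (DUSP4, PHLDA1 and, below detection, SPRED2 and ETV4), where 21.5% of all genes did not. In the co-cultures the counts were 1 of 9 (ETV4) with FGF2, beside 19.3% of all genes, and 2 of 9 (SPRED2 and ETV5) with BMP4, beside 13.0%. The FGF2 and BMP4 comparisons within a culture share the same untreated arrays.

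Marker genes of other kinds moved with the growth factors as well. With FGF2 in PA6, 4 of 5 proliferation markers were called higher (mean log2 level 6.35 without growth factors and 7.68 with FGF2), and 3 of 4 adipocyte markers were called lower (10.94 and 7.87). Of 10 stromal markers 2 were called lower, with summed levels from 163734 to 179839 without growth factors and from 150545 to 191984 with FGF2. In the co-cultures the summed ES markers went from 43342 to 60413 without growth factors and from 69394 to 81266 with FGF2, with 3 of 9 called higher and 1 lower. The summed stromal markers there went from 81508 to 104421 and from 69696 to 80156. With BMP4 the mean log2 level of the adipocyte markers was 12.41 in PA6 (1 of 4 called higher) and 11.14 in the co-cultures, against 9.08 without growth factors (2 of 4 called higher), and 1 of 5 proliferation markers was called higher in PA6. The part of these shifts in the values of the 9 genes was not tested.

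Among 75 other genes of the pathway, listed by role with earlier results of these data known, 60 were tested. With FGF2 in PA6, 10 were called, beside 5.27% of all genes, 7 higher and 3 lower. Those that rose most were JUN (2.23 ± 0.326, adjusted p = 0.000177) and JUNB (2.22 ± 0.215, adjusted p = 3.19e-06), subunits of AP-1, then ETV1 (1.86 ± 0.291, adjusted p = 0.000331), the third member of the ETV4 and ETV5 subfamily, and EGR2 (1.82 ± 0.445, adjusted p = 0.0107), a relative of EGR1. Lower were the receptor FGFR2 (-1.26 ± 0.229, adjusted p = 0.00121), EGR3 (-1.07 ± 0.208, adjusted p = 0.00212) and the adaptor GAB1 (-1.06 ± 0.138, adjusted p = 6.08e-05).

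By role, the FGF2 calls in PA6 were 2 of 11 receptors and adaptors, 0 of 13 genes from RAS to ERK, 1 of 15 other inhibitors (SPRY3, 1.58), 1 of 6 ETS and repressor genes, and 6 of 15 other early response genes. The EGR family split: EGR1 and EGR3 fell while EGR2 rose. In the co-cultures with FGF2 1 of 60 was called, EGR2 (1.61 ± 0.445, adjusted p = 0.041), which is no larger a share than the 3.34% of all genes. Without the third untreated replicate or the first FGF2 replicate of the co-cultures that count was 0, and without the third FGF2 replicate it was 2.

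With BMP4 in PA6 3 of 60 were called, beside 1.41% of all genes: FGFR3 (1.24 ± 0.243, adjusted p = 0.0109) and FGFR2 (1.04 ± 0.229, adjusted p = 0.0227) higher and JUN (-1.65 ± 0.326, adjusted p = 0.0116) lower. FGFR3 was detected on 1 of 3 untreated and all 3 BMP4 arrays of PA6, and on no array of the other groups. It thus passed the filter on detection only through the BMP4 group where it is high, which limits its place in this count. JUN and FGFR2 thus had opposite signs under FGF2 and BMP4, both relative to the same untreated arrays. In the co-cultures with BMP4 0 of 60 were called by limma, beside 0.760% of all genes, with 6 at an unadjusted p under 0.05. With replicate as a block 1 was called, where the calls over all genes went from 125 to 215.

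**Figure D4:**
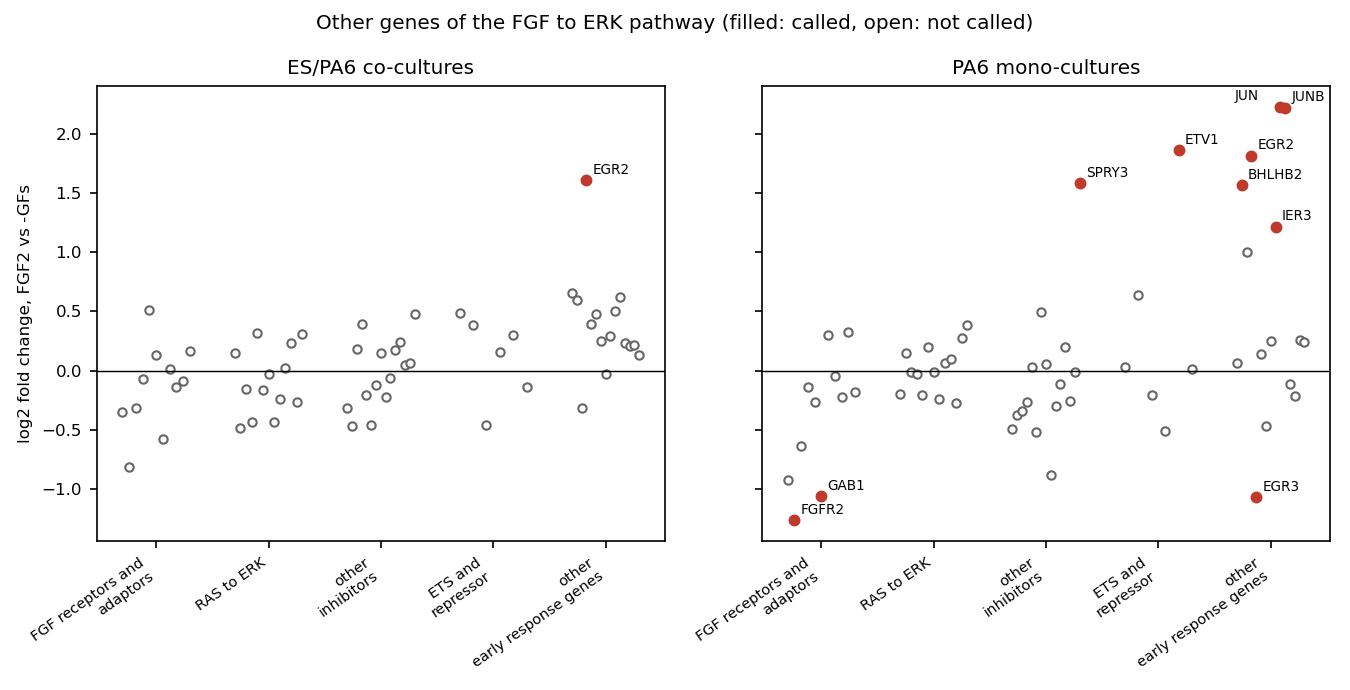
Log2 fold change with FGF2 against no growth factor (vertical axis) for the 60 tested genes of the pathway list by role (horizontal axis), in ES/PA6 co-cultures (left) and PA6 mono-cultures (right), with called genes filled and named. The early response genes hold 6 of the 10 calls in PA6, and the genes from RAS to ERK hold none.

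The genes whose pattern was most like that of DUSP6 over the 18 arrays, after the mean of each culture type was subtracted, were SAMD10 (Pearson r = 0.951), LOC664837 (r = 0.950) and IL6 (r = 0.948). For ETV5 they were TNNI3K (r = 0.949), LOC664837 (r = 0.949) and B230209E15RIK (r = 0.947). For SPRY4 the highest were lower, with GNPTAB (r = 0.857), 1700123O20RIK (r = 0.849) and 2610029J22RIK (r = 0.810). These coefficients are descriptions over arrays that share treatments. IL6, a cytokine, had a log2 change of 2.71 with FGF2 in PA6 and 0.17 in the co-cultures.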

How the data were processed

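Total RNA was labelled and hybridised by the authors to Illumina mouse whole-genome bead arrays with 1 signal per probe. The authors deposited non-normalized probe intensity, exported per the labels with GenomeStudio 2011.01, with a detection p-value for each probe and array. The table held 45281 probes once 5 stray lines with shifted columns were left out. No values of the authors' own comparisons were used. Groups, replicate numbers, doses and day come from the labels, where the BMP4 dose is above that in the study's methods for its slide cultures.

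Intensities (55.5 to 72879) were background corrected, quantile normalized and taken to log2 with neqc of limma 3.58.1 in R 4.3.3, with an offset of 16 and negative controls inferred from the detection p-values. This differs from the cubic spline in the study's methods, which was an alternative. Probes detected at a p-value under 0.05 on at least 3 of 18 arrays were kept (22987), and each gene took its probe with the largest mean, which left 16446 genes. Quantile normalization sets all arrays to one distribution, so a global shift would be hidden. The offset compresses changes of dim probes, while background correction widens them. The difference of ETV4 between FGF2 and BMP4 in PA6 was 1.37 with neqc and 0.904 with quantile normalization and no background correction.

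limma was fitted once to all 6 groups, so that they share 1 estimate of the spread, and 9 contrasts were taken, each adjusted by Benjamini-Hochberg over all genes. A gene undetected on all arrays of a group was given as at least the fold between the bright group and the lowest detected signal or the dim value, whichever was higher. Such a bound holds for the background-corrected values and can be smaller under another normalization. The number of arrays limits the precision. The labels call replicates biological and give no other origin, so p-values measure the spread between these cultures. Same-numbered arrays deviated together in the co-cultures (9 pairs, r from 0.325 to 0.521) and only weakly in the mono-cultures (r from 0.0628 to 0.164).

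The members and the pathway and marker lists were chosen with earlier results of these data known. Named were all members with all probes, in each comparison with -GFs up to 4 called pathway genes in each direction, the 3 genes most like DUSP6, ETV5 and SPRY4, and markers needed to check a label; SPRY3 was named after its value was seen. All 10 symbols matched the RefSeq gene table, and promoter windows were used for 5 members (6 windows). No window was at hand for DUSP4, ETV4 and PHLDA1, and those of SPRY4 and EGR1 were left out by a filter on the chromosome. The promoters of these members were thus not searched for any motif. The fit was tested on simulated data with known changes. Alternatives covered the normalization, the filter, the probe, the samples in the fit, the replicate block, the thresholds and leaving out each array.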

Additional observations from a re-analysis of the deposited data

Results flagged for a closer look

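The log2 effect of FGF2 differed between the culture types for 4 members by the test of the difference itself (limma, adjusted over all genes). The co-culture effect minus the PA6 effect was -2.38 for DUSP6 (0.01 against 2.39), -2.39 for ETV5 (-0.13 against a fitted 2.25), -2.15 for PHLDA1 (0.41 against 2.56) and 2.22 for EGR1 (0.05 against -2.16). ETV5 was not detected in untreated PA6, so its rise there is a bound, at least 3.92-fold on the background-corrected values. Over the alternatives its fitted log2 rise in PA6 lay between 1.35 and 2.39, and its difference between cultures between -2.53 and -1.48. The second ETV5 probe gave a difference of -1.91. With 3 cultures in each group no test for a stray array was made. The co-culture values are blends with a high untreated level of DUSP6 and ETV5. Mean raw DUSP6 intensity was 461 in untreated PA6, 2033 in PA6 with FGF2 and 5164 in untreated co-cultures. For ETV5 these means were 150, 367 and 3281. How far a PA6 rise of that size would move the log2 value of the blend was not tested.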

How the results depend on the processing

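Apart from leaving out arrays, each member and comparison was recomputed in 909 instances, of which 893 kept the call and its direction, 4 lost a call, 12 gained one and 0 reversed. Leaving out 1 array at a time gave 594 instances, of which 586 kept it, 5 lost a call and 3 gained one. Values called in neither fit changed sign in 5 and 28 instances. The FGF2 calls of DUSP6, ETV5, PHLDA1, EGR1 and DUSP4 in PA6 held under every alternative that kept the gene with its brightest probe. Their dimmer probes did not all follow, and the DUSP4 call rests on that probe, since its other 3 were not called there and neither was 1 of the other 2 DUSP6 probes.

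Members called with FGF2 in the co-cultures numbered 0, and 1 with the cubic spline, with quantile normalization and no background correction, with each probe tested by itself (DUSP4, 2 probes) and with the co-cultures fitted alone. Outside the probe-wise test the gained gene was ETV4, with an adjusted p of 0.0214, 0.0212 and 0.0185. With BMP4 in PA6 the count went from 1 to 2 with median scaling, with detection required on all 18 arrays, with each probe tested by itself and with the replicate block, the gained gene being DUSP4. Between FGF2 and BMP4 in PA6 it went from 5 to 3 with detection on all 18 arrays, which removes ETV4 and ETV5, and from 3 to 5 over arrays left out, the lowest without the second FGF2 replicate of PA6. Between untreated cultures it went from 4 to 2 with detection on all arrays, where the same 2 genes drop out. In the main fit 39.0% of all genes were called in this comparison, so 4 of 9 is near that share. For the BMP4 difference between cultures it went from 0 to 1 with the replicate block (SPRED2), where the calls over all genes went from 92 to 305.

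For the pathway list, no fold threshold gave 5 in place of 1 with FGF2 in the co-cultures, 6 in place of 3 between FGF2 and BMP4 there, 17 in place of 10 with FGF2 in PA6 and 22 in place of 11 between FGF2 and BMP4 in PA6. The shares of all genes given above apply with the fold threshold, so they are no background for these counts. With the threshold, the counts over arrays left out were 0 to 2 with FGF2 and 0 to 1 with BMP4 in the co-cultures, and 1 to 4 between the factors there. With the replicate block the BMP4 co-culture count was 1 in place of 0, and over all genes the calls there went from 125 to 215. In PA6 the block took the calls over all genes from 867 to 887 with FGF2 and from 232 to 276 with BMP4. The cause of these shifts was not tested. The block also brought ETV4 with FGF2 in PA6 to an adjusted p of 0.0625. Same-numbered PA6 arrays were only weakly paired (r from 0.0628 to 0.164). The block changed no other member's call besides DUSP4 and SPRED2. Members at or below detection (SPRY4, SPRED2, and ETV4 and ETV5 in PA6) rest on signals near background, where fitted changes are imprecise and, with a group undetected on all arrays, give at most a bound.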

Other observations

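Over the pathway list, untreated co-cultures and untreated PA6 differed for 22 of 60 genes, of which the co-cultures had more of 8 and less of 14. Over all genes 39.0% were called in this comparison, so 22 of 60 is near the background. Among those detected on all arrays of both groups, RPS6KA1, which encodes a kinase activated by ERK, was higher in the co-cultures (5.16 ± 0.187), and the receptor FGFR1 (-2.53 ± 0.244) and FOSL2, a subunit of AP-1 (-1.95 ± 0.203), were lower. PHLDA2, a relative of PHLDA1, was not detected in untreated PA6 and was at least 16.9-fold higher. These genes were chosen after their values were seen.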
